A study of Rattus norvegicus with 20 samples.

Results

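The nucleus accumbens was compared with the prefrontal cortex in male rats that had received the standard diet, across all measured genes. The comparison used 10 of the 20 RNA-seq libraries of the series, 5 from the accumbens and 5 from the cortex, taken by the tissue and diet that their labels give. Both groups came from Fischer344/Jcl rats, an inbred laboratory strain, that ate AIN-93G standard chow between 21 and 39 days of age and were sampled at 13 weeks, and no altered gene or drug is named for either. The other 10 libraries came from rats given a low-iron diet over the same days. Whether the 5 libraries of a region came from separate rats, and whether equally numbered libraries of the 2 regions share a rat, is not given in the labels. The p-values therefore measure the spread between these libraries, which may be technical in part.

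The nucleus accumbens is the ventral part of the striatum. Most of its neurons are GABAergic spiny projection neurons that carry either the D1 or the D2 dopamine receptor, and a small population of cholinergic interneurons lies among them. The prefrontal cortex is built mainly of glutamatergic pyramidal neurons in layers, with several classes of GABAergic interneurons. The projection neurons of these regions arise from different parts of the embryonic forebrain and keep different sets of transcription factors. Dopamine acts in the spiny neurons largely through adenylyl cyclase, cyclic AMP and protein kinase A. The libraries were made from pieces of tissue, so a lower level can reflect fewer cells of a type or less RNA per cell, and these cannot be told apart.

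Reads assigned to genes numbered 5481403 to 8856989 per accumbens library and 8291063 to 12971736 per cortex library (exact permutation test, 2-sided, p = 0.0317, adjusted p = 0.0440 over 18 library measures). That adjusted p was 0.0714 to 0.0952 without any one of accumbens replicates 2 to 5 or cortex replicates 1 to 3. A larger share of accumbens reads fell outside annotated features, 40.3 to 42.0% against 37.8 to 38.4%, with no overlap (exact permutation p = 0.00794, the smallest that 5 against 5 allows, adjusted p = 0.0130). Levels below are counts-per-million (CPM) of the assigned reads after scaling for library composition, given as mean ± SD over n = 5 libraries, and log2 fold changes are accumbens minus cortex ± SE. The defining markers lay on the side of the tissue labels: 17 striatal projection neuron genes summed to 8723 to 15044 CPM in the accumbens and 1779 to 2081 CPM in the cortex, whereas 15 effector genes of cortical glutamatergic neurons summed to 1897 to 3324 CPM and 6126 to 9866 CPM. Each region held 1 library that stood apart in its markers. In log2 CPM over all tested accessions, cortex replicate 4 correlated with the other cortex libraries at 0.963 to 0.972. The lowest other cortex pair was at 0.991. Accumbens replicate 4 did not stand apart by this measure: it correlated with the other accumbens libraries at 0.985 to 0.988, and accumbens replicates 2 and 3 correlated at 0.983. Accumbens replicate 4 had 313 CPM of Slc17a7, the vesicular glutamate transporter of cortical pyramidal neurons, against 1.83 to 17.5 CPM in the other accumbens libraries. Cortex replicate 4 had 1979 CPM summed over the markers of meninges and choroid plexus, against 172 to 344 CPM in the other cortex libraries. Results that these libraries moved by over 1.5 times are given with and without them.

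Differences between the regions were widespread. Of 11612 transcript accessions that passed the filter on low counts, 5462 (47.0%) were called at an adjusted p under 0.05 in edgeR's quasi-likelihood test, 2675 (23.0%) higher in the accumbens and 2787 (24.0%) lower. Most called differences were modest: 3101 of the 5462 were under 1.5-fold, 1036 were between 1.5-fold and 2-fold, 876 between 2-fold and 4-fold and 364 between 4-fold and 16-fold. The remaining 85 were 16-fold or more, 40 of them higher in the accumbens and 45 lower, and in all 85 the 2 groups of libraries did not overlap; over all tested accessions 33.6% did not. At 2-fold or more, 541 (4.66%) were called higher and 784 (6.75%) lower, 1325 (11.4%) in all. Tested against a difference of 2-fold with edgeR's glmTreat, 691 accessions (5.95%) passed, 300 (2.58%) of them higher and 391 (3.37%) lower. The balance of directions depended on the scaling: by library size alone, 3997 accessions were higher and 2082 lower, with the median log2 fold change of all accessions at 0.12 in place of 0.0075. The shares of gene lists in the following paragraphs are to be read beside the background of 47.0% called. Genes were named by size and by p within each list, and those that only complete a family or a pathway were chosen after their values were seen.

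**Figure D1:**
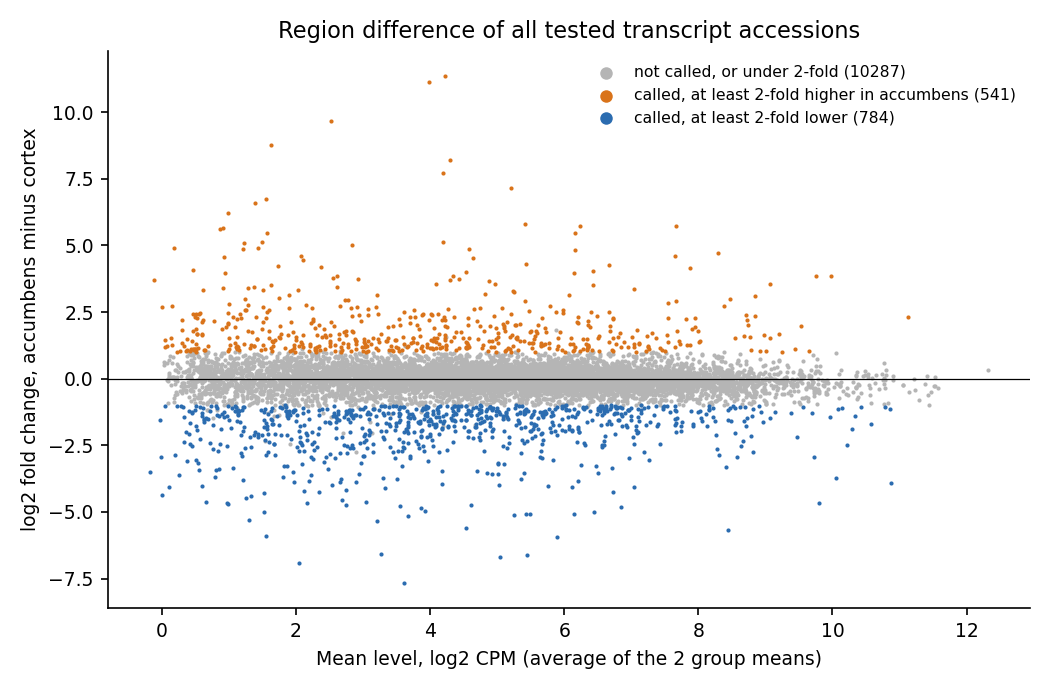
Log2 fold change (accumbens minus cortex, vertical) against the mean level (log2 CPM, horizontal) of all 11612 tested transcript accessions in the 10 standard-diet libraries. Grey points are not called or under 2-fold, and coloured points are called and at least 2-fold, 541 higher in the accumbens (orange) and 784 lower (blue).

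The low-iron libraries of the same regions, which share no sample with this comparison, mostly gave the same directions. Of the 5462 called accessions 5333 could be tested there, 5304 had the same sign, 4874 were also called and none was called in the opposite direction. Every accession past the 2-fold test that could be tested there, 655 of 691, was called with the same sign, in a comparison where 59.1% of accessions were called. The difference between the 2 region effects, the interaction of region and diet in edgeR, was called for 0 of 11788 accessions, and 632 (5.36%) had an unadjusted p under 0.05.

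Among the genes with the largest differences upward in the accumbens were 3 homeobox transcription factors without a single read in the cortex. Six3, a regulator of ventral forebrain development, was at 40.2, 54.8, 27.6, 28.3 and 35.7 CPM in accumbens replicates 1 to 5, which is at least 637-fold higher than the cortex when the cortex is set to a floor of 3 reads over the group. Isl1, which marks developing striatal and cholinergic neurons, was at 13.2, 13.2, 11.3, 6.36 and 13.6 CPM, at least 197-fold higher. Lhx8, needed for forebrain cholinergic neurons, was at 25.9, 13.7, 53.8, 18.6 and 47.1 CPM, at least 518-fold higher, with replicates 3 and 5 well above the rest. Nkx2-1, which specifies neurons of the medial ganglionic eminence, was at 13.9 ± 3.43 CPM in the accumbens and 0.407 ± 0.272 CPM in the cortex (log2 fold change 5.01 ± 0.37, edgeR adjusted p = 6.51e-07).

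Several of the largest upward differences were in genes of signalling at the cell surface. Gpr101, an orphan receptor, was at 35.1, 42.8, 33.6, 34.5 and 36.5 CPM in the accumbens libraries and at 0 to 0.242 CPM in the cortex (log2 fold change 7.71 ± 0.22, edgeR adjusted p = 4.9e-10). Nts encodes neurotensin, a peptide that interacts with dopamine signalling. It was at 83.1, 72.1, 67.0, 69.4 and 73.8 CPM in the accumbens and 0.0898, 0.162, 0.210, 2.03 and 0.257 CPM in the cortex, so the accumbens libraries lay within a narrow band and cortex replicate 4 was the highest of the cortex (log2 fold change 7.13 ± 0.37, edgeR adjusted p = 1.78e-07, and 8.62 without cortex replicate 4). Rgs9, which speeds the shut-off of dopamine receptor signalling, was at 463, 524, 319.6, 367 and 324 CPM against 7.72, 4.85, 9.24, 7.55 and 8.87 CPM (53.0-fold, edgeR adjusted p = 1.64e-08). Gpr6, a receptor of D2 spiny neurons (83.8 ± 29.8 against 1.48 ± 0.809 CPM), and Syndig1l, a membrane protein of striatal neurons (139 ± 39.6 against 3.22 ± 2.61 CPM), were 56.0-fold and 44.0-fold higher. For Syndig1l the log2 fold change moved from 5.46 to 6.06 without cortex replicate 4.

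On the cortical side, Rspo2, an amplifier of Wnt signalling, had the largest fold of the genes named for size (at least 10 CPM in the higher group, no overlap) with all libraries included. Without accumbens replicate 4 its log2 fold change was -7.44, and those of Slc30a3 (-7.95) and Slc17a7 (-7.45) were larger in size. Rspo2 had 4 reads in all accumbens libraries together and 24.4, 24.3, 29.7, 19.9 and 23.1 CPM in the cortex (log2 fold change -7.65 ± 0.30, edgeR adjusted p = 9.86e-09, and -8.25 without accumbens replicate 3). Adra1d, an alpha-1 noradrenaline receptor, was at 0.545, 0.596, 1.29, 1.06 and 0.983 CPM in the accumbens and 90.2, 99.9, 79.6, 71.9 and 91.6 CPM in the cortex, 99.1-fold higher there (edgeR adjusted p = 2.29e-10). The basic helix-loop-helix factors of pyramidal neurons, Neurod6 and Neurod2, followed. Neurod6 was at 0.873, 1.31, 0.286, 7.77 and 0.421 CPM in the accumbens against 76.7 to 144 CPM in the cortex, and Neurod2 at 1.09, 0.834, 0.429, 12.5 and 0 CPM against 56.8 to 102 CPM. In both, accumbens replicate 4 was the highest accumbens library: the log2 fold change of Neurod6 was -5.95 ± 0.52 with all libraries and -7.24 without it, and that of Neurod2 -5.09 ± 0.67 and -7.08.

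Dpp4, a surface peptidase, was 41.0-fold higher in the cortex (0.424 ± 0.208 against 18.1 ± 3.60 CPM, edgeR adjusted p = 4.61e-08). Rtn4rl2 and Rtn4r encode receptors that limit axon growth. Rtn4rl2 was at 2.76 ± 3.42 CPM in the accumbens and 83.2 ± 16.4 CPM in the cortex (log2 fold change -5.09 ± 0.46, and -6.09 without accumbens replicate 4). Rtn4r was at 4.43 ± 4.05 and 137 ± 24.5 CPM (log2 fold change -5.07, and -5.71 without that library). The epithelial cadherin Cdh1 and the Wnt modulator Shisa3 also lay among the largest differences by the naming rule, but cortex replicate 4 carried much of their cortical level. Cdh1 was at 8.35, 8.16, 12.9, 62.3 and 3.86 CPM in cortex replicates 1 to 5 and at 0.119 to 0.281 CPM in the accumbens (log2 fold change -6.56 ± 1.18, and -5.38 without cortex replicate 4). Shisa3 was at 6.73, 14.3, 11.4, 84.9 and 6.04 CPM against 0.476 to 1.06 CPM (log2 fold change -5.16 ± 1.07, and -3.84 without it).

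**Figure D2:**
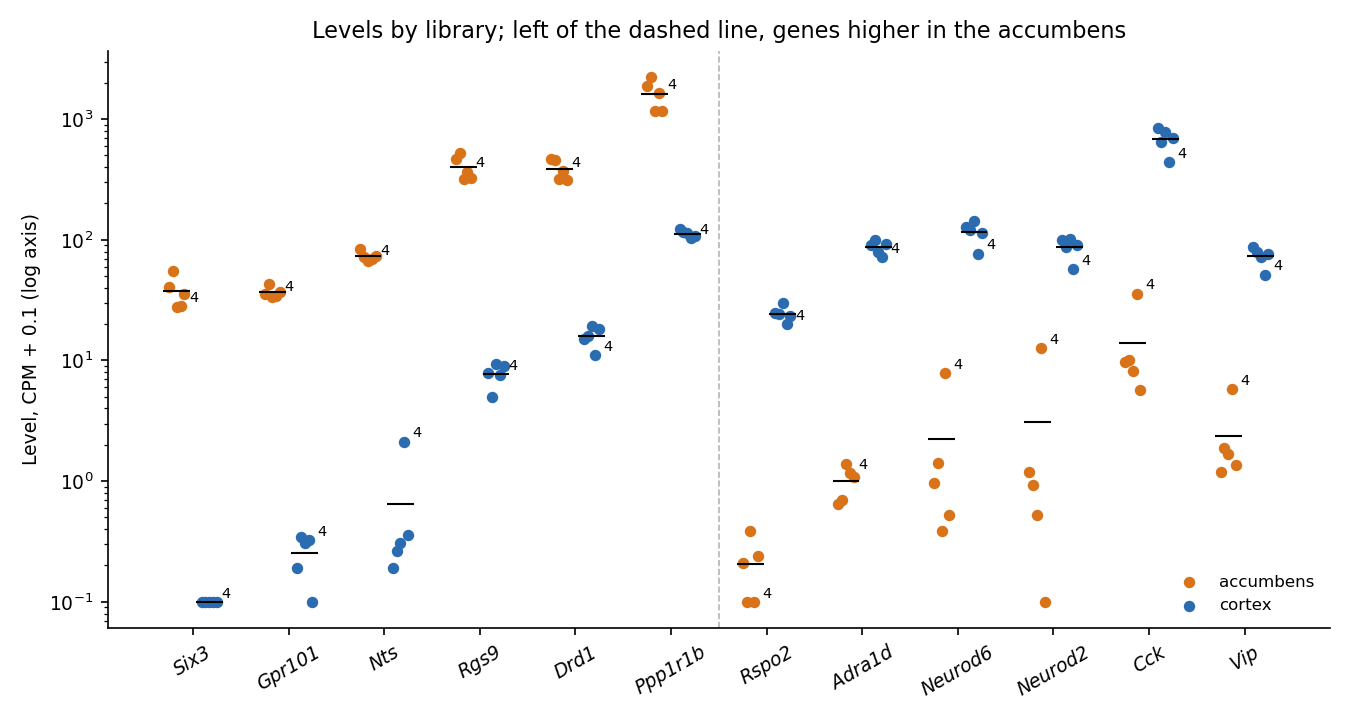
Level in each of the 10 libraries of 12 genes among the largest differences, 6 higher in the accumbens and 6 lower, on a log axis of CPM + 0.1. Points are libraries (orange accumbens, blue cortex), short bars are group means, and the number 4 marks the replicates numbered 4. In all 12 genes the groups do not overlap, which the naming rule required of all but Drd1 and Ppp1r1b. Over all tested transcript accessions 33.6% did not overlap. Accumbens replicate 4 is the highest accumbens library for Neurod6, Neurod2, Cck and Vip.

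The sequences just upstream of 2 genes from each side are shown here. Their windows hold the motifs marked below, and most others do not: Nts and Rgs9 are the 2 of 9 genes named for size on the accumbens side whose window holds either motif, and Neurod6 and Neurod2 are 2 of the 3 of 8 on the cortical side. Beside these, Grp held CAGATG, and the windows of the other genes named for size held neither motif, so the sequences do not represent their side. Each line gives the 250 bases before the annotated start, 5′ to 3′ on the gene's strand, from RefSeq on GRCr8. The windows lie at chr7:39460889-39461138 (Nts), chr10:94770388-94770637 (Rgs9), chr4:86180156-86180405 (Neurod6) and chr10:83824278-83824527 (Neurod2), all on the minus strand. Capitals mark CAGCTG and CAGATG, both of which belong to the E-box family that helix-loop-helix factors are known to bind; both strands were searched, and CAGCTG reads the same on each.
Nts: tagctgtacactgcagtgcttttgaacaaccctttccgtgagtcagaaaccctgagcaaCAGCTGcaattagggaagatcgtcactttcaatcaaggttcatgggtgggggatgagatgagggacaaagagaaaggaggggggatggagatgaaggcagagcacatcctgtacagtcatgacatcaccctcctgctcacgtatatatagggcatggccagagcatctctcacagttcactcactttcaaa
Rgs9: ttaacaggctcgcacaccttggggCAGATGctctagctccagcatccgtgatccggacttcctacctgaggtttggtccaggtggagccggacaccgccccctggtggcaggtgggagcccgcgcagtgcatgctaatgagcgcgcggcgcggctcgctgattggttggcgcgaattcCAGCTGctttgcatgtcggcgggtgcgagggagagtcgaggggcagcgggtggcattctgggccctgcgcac
Neurod6: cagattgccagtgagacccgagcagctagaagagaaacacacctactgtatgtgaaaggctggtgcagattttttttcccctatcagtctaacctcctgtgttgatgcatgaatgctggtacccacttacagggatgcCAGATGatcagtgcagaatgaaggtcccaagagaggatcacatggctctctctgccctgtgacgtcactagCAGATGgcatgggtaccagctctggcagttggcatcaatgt
Neurod2: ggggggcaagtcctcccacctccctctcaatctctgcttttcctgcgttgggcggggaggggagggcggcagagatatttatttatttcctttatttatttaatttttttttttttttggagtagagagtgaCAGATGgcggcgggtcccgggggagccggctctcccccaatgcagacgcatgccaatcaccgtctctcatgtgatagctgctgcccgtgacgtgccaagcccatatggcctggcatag

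Nts held a single CAGCTG, starting 191 bases before the start, and Rgs9 one CAGCTG and one CAGATG. Neurod6 held 2 copies of CAGATG and Neurod2 a single copy, and neither held CAGCTG in this window. Windows were found for 9360 of 11509 tested genes, for 424 of the 541 genes called at least 2-fold higher in the accumbens and for 582 of the 780 called at least 2-fold lower. CAGCTG lay in 12.7% of all windows, in 21.0% of those of genes higher in the accumbens and in 13.9% of those of genes lower. CAGATG lay in 9.24%, 13.9% and 13.4% of these windows, and the TATA motif TATAAA in 6.23%, 8.49% and 9.62%. TAATTA, a core that homeodomain factors bind, lay in 1.94%, 2.36% and 2.58%, and TGACGTCA, the cyclic AMP response element, in 3.03%, 1.65% and 3.44%. The number of CG dinucleotides per window averaged 16.9 over all genes, 13.8 for the genes higher in the accumbens and 15.5 for those lower. These shares are descriptions of letters in a window and were not tested.

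Genes of spiny projection neurons were higher in the accumbens, with 1 exception among those tested. Of the striatal projection neuron list, all 16 tested members were called higher, with a median log2 fold change of 2.55 against 0.0075 for all accessions; of the lists for D1 and D2 neurons, 6 of 7 and 7 of 7 were. The D1 member that was not called was Sfxn1, a mitochondrial serine transporter (log2 fold change -0.16, adjusted p = 0.0522, and 0.00275 without cortex replicate 4). Ppp1r1b encodes DARPP-32, the protein phosphatase inhibitor on which dopamine and glutamate signals converge. It was at 1898, 2235, 1165, 1633 and 1172 CPM in the accumbens and 122, 116, 113, 104 and 107 CPM in the cortex, 14.4-fold higher with no overlap (edgeR adjusted p = 7.19e-08). The orphan receptor Gpr149 was 12.7-fold higher (54.6 ± 9.99 against 4.37 ± 1.11 CPM). Pde10a, the phosphodiesterase characteristic of spiny neurons, was at 329.7 ± 90.2 against 46.2 ± 12.7 CPM (7.14-fold).

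The 4 dopamine receptors that could be tested were all higher in the accumbens, by very different amounts. Drd1, the D1 receptor, was at 470.3, 462, 318, 370.5 and 311 CPM in the accumbens and 11.04 to 19.1 CPM in the cortex (24.4-fold, edgeR adjusted p = 1.91e-08), and Drd2 was at 215, 267, 148, 195 and 144 CPM and 6.53 to 13.5 CPM (19.3-fold, adjusted p = 3.02e-07). Drd3, the D3 receptor typical of the ventral striatum, was at 3.89 to 8.70 CPM in the accumbens with no read in any cortex library, at least 105-fold higher at a floor of 3 reads over the group. Drd5, the other D1-class receptor, was low in both (1.75 ± 0.3598 and 0.830 ± 0.369 CPM, 2.08-fold, adjusted p = 0.0144), and its groups overlapped. The opioid peptide genes of the spiny neurons followed the receptors: Penk, the enkephalin precursor of D2 neurons, was 11.8-fold higher (991 ± 269.7 against 84.0 ± 38.6 CPM) and Pdyn, the dynorphin precursor of D1 neurons, 17.8-fold (447 ± 106 against 25.1 ± 6.24 CPM). Adora2a and Tac1, also defining genes of these neurons, carry several transcript accessions each, were listed at or near 0 in both regions and were not tested.

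In the step from receptor to cyclic AMP, members of the same family were called in opposite directions. Over all tested accessions 23.0% were called higher and 24.0% lower, and members that only complete a family were chosen after their values were seen. Gnal and Gng7, the G protein subunits that couple D1 and adenosine receptors to adenylyl cyclase, were 6.63-fold and 14.3-fold higher in the accumbens (581 ± 88.2 against 87.6 ± 3.04 CPM and 1889 ± 394 against 132 ± 15.6 CPM). Adcy5, the main striatal adenylyl cyclase, was 3.95-fold higher (1181 ± 295 against 299 ± 29.9 CPM, log2 fold change 1.98 ± 0.16). Of its relatives, Adcy1, which calcium and calmodulin stimulate, was 4.20-fold higher in the cortex (41.7 ± 8.92 against 175 ± 45.1 CPM) and Adcy2 1.81-fold. Of the regulatory subunits of protein kinase A, Prkar2b was higher in the accumbens (2.37-fold) and Prkar1b in the cortex (1.82-fold). Phosphodiesterases that break down cyclic nucleotides were higher in the accumbens for Pde1b (4.62-fold), Pde7b (3.42-fold) and Pde8b (3.27-fold). Over the whole cyclic nucleotide list, 19 of 38 tested genes were called higher and 8 lower.

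Regulators of G protein signalling, which switch off G proteins, split in the same way. Rgs9 and Rgs8 (2.51-fold) were higher in the accumbens. Rgs4, abundant in cortical neurons, was at 127, 113, 129, 187 and 119 CPM in the accumbens and 727, 719, 727, 508 and 689.7 CPM in the cortex, 5.01-fold higher there (edgeR adjusted p = 3.11e-07), and Rgs12 (2.16-fold) and Rgs7 (1.78-fold) were also higher in the cortex. Over the list of RGS and G protein genes 10 of 32 were called higher and 13 lower. Calcium and calmodulin signalling leaned towards the cortex, with 22 of 33 tested genes lower in the accumbens and 3 higher (median log2 fold change -0.49). Camk2a, the abundant synaptic kinase, was 2.22-fold higher in the cortex (1156 ± 233 against 2560.4 ± 440.3 CPM), and Nrgn, which holds calmodulin at the synapse, 5.67-fold (358 ± 124 against 2027 ± 453 CPM). Against that direction, the neuronal calcium sensor Hpca was 1.68-fold higher in the accumbens (1092 ± 296 against 649.6 ± 134 CPM, adjusted p = 0.00868). The Ras activators Rasgrp2 and Rasgrf2 were opposite too, 5.72-fold higher in the accumbens and 5.03-fold higher in the cortex.

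**Figure D3:**
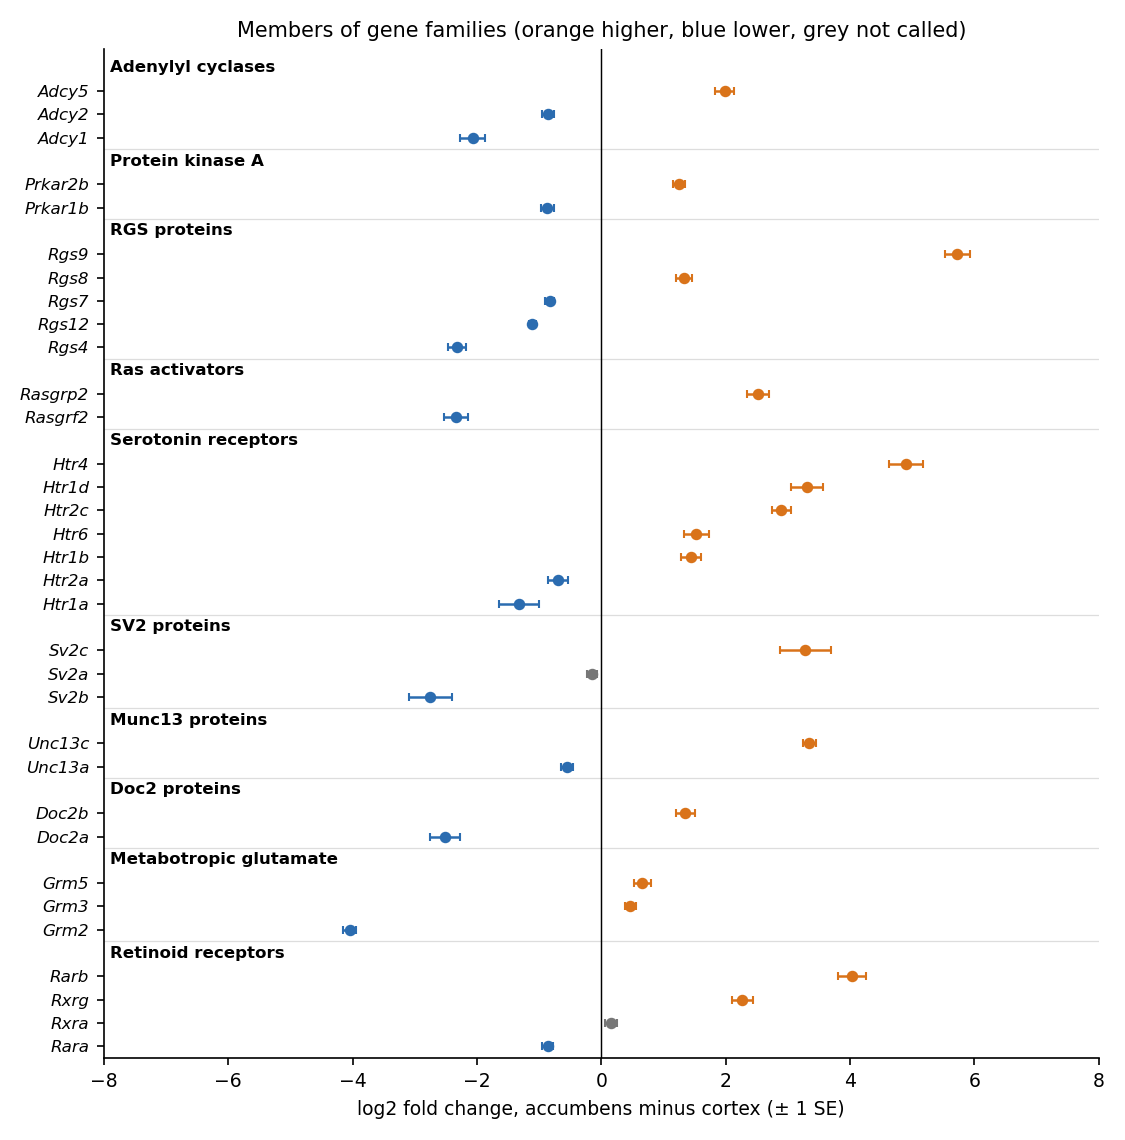
Log2 fold change (accumbens minus cortex, bars are ± 1 SE of the edgeR fit) of members of gene families, grouped by family along the vertical axis. Within the adenylyl cyclases, protein kinase A subunits, RGS proteins, SV2 proteins, Doc2 proteins and Munc13 proteins, called members lie on both sides of 0. Over all tested accessions 23.0% were called higher and 24.0% lower, and members that only complete a family were chosen after their values were seen.

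Monoamine and acetylcholine receptors divided almost evenly, with 14 of 31 tested genes higher in the accumbens and 11 lower. Among serotonin receptors, the accumbens had more Htr2c (357 ± 36.1 against 47.9 ± 11.05 CPM, 7.45-fold, edgeR adjusted p = 1.22e-07), Htr4 (5.22 ± 0.917 against 0.168 ± 0.0716 CPM, 29.8-fold), Htr1d (9.90-fold), Htr6 (2.89-fold) and Htr1b (2.72-fold). The cortex had more Htr1a (3.88 ± 1.94 against 9.57 ± 1.82 CPM, 2.49-fold) and Htr2a (13.6 ± 2.71 against 21.9 ± 4.11 CPM, 1.62-fold), the receptor through which classical hallucinogens act; for Htr2a the groups overlapped. Of the noradrenaline receptors named here, beside Adra1d, the cortex had 5.22-fold more Adra1b, 1.98-fold more Adrb1 and 1.84-fold more Adra2a, while Adra2c was 3.40-fold higher in the accumbens (94.6 ± 21.5 against 27.9 ± 3.59 CPM). Of the muscarinic receptors, Chrm4, which inhibits adenylyl cyclase, was 1.89-fold higher in the accumbens, and the phospholipase-coupled Chrm3 and Chrm1 were 4.40-fold and 1.54-fold higher in the cortex. Chrm5, which couples like the latter, was higher in the accumbens (log2 fold change 3.04 ± 0.48, and 3.96 without cortex replicate 4). The nicotinic subunits Chrna4 and Chrna5, which assemble with each other, were 4.89-fold and 8.75-fold higher in the cortex.

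Neuropeptide precursors were called in 16 of 24 tested genes, 8 in each direction. Higher in the accumbens, beside Nts, Penk and Pdyn, were Tac3, the neurokinin B precursor (54.2 ± 8.08 against 14.7 ± 2.09 CPM, 3.70-fold), and Cartpt, the precursor of a peptide regulated by psychostimulants. Cartpt was at 174, 184, 115, 106 and 110.4 CPM in the accumbens and 0.898, 0.808, 0.315, 23.1 and 0.643 CPM in the cortex, where replicate 4 was far above the other 4 libraries (log2 fold change 4.82 ± 0.85, and 7.63 without it). Lower in the accumbens were peptides of cortical interneurons and pyramidal neurons. Cck, the cholecystokinin precursor, was at 9.60, 10.01, 8.15, 35.7 and 5.62 CPM in the accumbens and 839, 649, 779, 438 and 696 CPM in the cortex (log2 fold change -5.69 ± 0.46, and -6.33 without accumbens replicate 4). Vip was at 1.09, 1.79, 1.57, 5.65 and 1.26 CPM against 51.4 to 87.7 CPM (log2 fold change -5.13, edgeR adjusted p = 5.4e-07, and -5.79 without both replicates numbered 4), Grp, the gastrin-releasing peptide, at 0.960 ± 0.437 against 45.6 ± 15.9 CPM (49.0-fold) and Crh, the corticotropin-releasing hormone, at 2.20 ± 1.38 against 12.1 ± 5.74 CPM (5.62-fold). Sst and Cort encode related peptides made by overlapping interneurons. Sst was at 175 ± 19.5 CPM in the accumbens and 150.3 ± 34.6 CPM in the cortex and was not called (adjusted p = 0.272), whereas Cort was at 0.327 to 1.77 CPM and 7.66 to 14.9 CPM, 13.7-fold higher in the cortex (adjusted p = 3.29e-06).

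Receptors for peptides and cannabinoids were lower in the accumbens in 10 of 23 tested genes and higher in 6. The somatostatin receptors Sstr1 (7.57-fold), Sstr2 (3.03-fold) and Sstr3 (3.45-fold) were all higher in the cortex. Cnr1, the cannabinoid receptor of axon terminals, was 2.98-fold higher in the cortex (134 ± 22.9 against 399 ± 90.6 CPM, edgeR adjusted p = 3.39e-05), and Cckbr, a cholecystokinin receptor, 3.10-fold. The accumbens had more Mc4r, the melanocortin receptor of feeding circuits (9.18 ± 1.56 against 3.28 ± 0.947 CPM, 2.79-fold), and more Tacr1, the substance P receptor (22.6 ± 3.83 against 10.4 ± 2.54 CPM, 2.19-fold).

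Most called transcription factors on the ventral forebrain list were higher in the accumbens, and most on the cortical list were lower. Of 18 tested factors of the ventral forebrain, 10 were higher in the accumbens and 4 lower; of 22 cortical factors, 18 were lower and 2 higher. Foxp2, a forkhead factor of spiny neurons, was at 184, 176, 143, 154 and 135 CPM in the accumbens and 9.70, 10.9, 18.7, 17.9 and 12.3 CPM in the cortex (11.5-fold, edgeR adjusted p = 1.32e-07), and its partner Foxp1 was 2.07-fold higher. Fezf2, which specifies deep-layer projection neurons, was at 3.76 ± 1.02 CPM in the accumbens against 61.3 ± 17.3 CPM (15.9-fold), Cux2 of upper layers at 69.2 ± 5.08 against 230.4 ± 34.5 CPM (3.33-fold), and Tbr1 of early-born neurons at 4.799, 2.26, 8.30, 53.7 and 8.15 against 121 to 186 CPM (log2 fold change -3.54 ± 0.67, and -4.85 without accumbens replicate 4). The area regulator Nr2f1, listed with the nuclear receptors, was 5.63-fold higher in the cortex (24.1 ± 6.15 against 134 ± 16.9 CPM). Members ran against their list in both cases. Tle4 and Pou3f1, on the cortical list as factors of deep and upper layers, were 2.48-fold and 1.86-fold higher in the accumbens (188 ± 27.9 against 75.8 ± 6.55 CPM for Tle4). On the ventral list Sp8 and Dlx1, factors of developing interneurons, were higher in the cortex (0.556 ± 0.254 against 8.62 ± 9.56 CPM for Sp8, and 25.2 ± 3.96 against 58.9 ± 33.2 CPM for Dlx1), Sp8 with a log2 fold change of -3.84, and -2.86 without cortex replicate 4.

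Retinoid receptors pointed to different members in each region. Rarb was at 199, 214, 132, 133 and 132 CPM in the accumbens and 8.08, 8.48, 9.98, 15.4 and 7.84 CPM in the cortex (16.4-fold, edgeR adjusted p = 2.86e-07), and its dimer partner Rxrg was 4.81-fold higher (83.8 ± 21.7 against 17.5 ± 1.89 CPM). Rara was higher in the cortex (10.8 ± 0.978 against 19.5 ± 1.31 CPM, 1.81-fold) and Rxra was not called (adjusted p = 0.194). Aldh1a2, an enzyme that makes retinoic acid and is also expressed in meninges, was at 21.0, 27.3, 30.5, 206 and 14.02 CPM in the cortex and 4.06 to 5.72 CPM in the accumbens, with most of it in cortex replicate 4 (log2 fold change -3.59 ± 0.88, and -2.24 without it).

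Genes for making GABA were higher in the accumbens and those of glutamatergic projection neurons lower. Gad2, which synthesises GABA at terminals, was at 394 ± 35.1 against 102 ± 22.3 CPM (3.87-fold) and Slc32a1, the vesicular GABA transporter, at 397 ± 38.7 against 116 ± 30.6 CPM (3.44-fold, edgeR adjusted p = 3.03e-06); in all 5 of 8 genes of GABA synthesis and transport were higher and none lower, and without cortex replicate 4 all 8 were called, 7 of them higher and the GABA transporter Slc6a13 lower. Of the 15 cortical glutamatergic effectors 13 were lower in the accumbens and none higher. Slc17a7 was at 17.5, 12.7, 5.87, 313 and 1.83 CPM in accumbens replicates 1 to 5 and 1197 to 1911 CPM in the cortex (log2 fold change -4.66 ± 1.19, adjusted p = 0.00996, and -7.45 without accumbens replicate 4). The zinc transporter of the same synaptic vesicles, Slc30a3, was at 0.763, 1.31, 1.14, 42.4 and 0.281 against 150.4 to 262 CPM (log2 fold change -4.81 ± 0.91, and -7.95 without it). Interneuron markers ran in both directions, with 5 of 20 tested genes higher and 6 lower: Pvalb, of fast-spiking cells, was 2.69-fold higher in the cortex (19.3 ± 5.01 against 51.3 ± 11.5 CPM), whereas Lhx6, a factor of the lineage that gives rise to such cells, was 2.82-fold higher in the accumbens (68.9 ± 29.4 against 24.5 ± 5.16 CPM).

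All 8 cholinergic genes were higher in the accumbens (median log2 fold change 5.43). Their summed level was 422 ± 183 CPM in the accumbens, a wider relative spread than the 11266 ± 2670 CPM of the striatal list, and 12.9 ± 2.05 CPM in the cortex. Chat, which makes acetylcholine, was at 50.9, 29.8, 71.5, 25.3 and 61.8 CPM in accumbens replicates 1 to 5 and 0.901 to 2.44 CPM in the cortex (22.9-fold, edgeR adjusted p = 3.67e-06). Slc5a7, the choline transporter, was at 89.5, 49.4, 119.6, 47.2 and 106 against 2.93 to 5.79 CPM, and Ecel1, a peptidase-like protein on this list, at 155, 110.1, 206, 88.2 and 182 against 2.14 to 3.47 CPM. The widest spread was in Ngfr, the low-affinity neurotrophin receptor that basal forebrain cholinergic neurons carry: 41.7, 3.69, 67.5, 3.36 and 60.8 CPM in the accumbens against 0.525 to 1.58 CPM in the cortex (log2 fold change 5.14 ± 1.00, adjusted p = 0.00222). Replicates 3, 5 and 1 were the highest for all 4 genes and replicates 2 and 4 the lowest. Summed over the cholinergic list the accumbens libraries ranged from 213 CPM in replicate 4 to 630 CPM in replicate 3, while the summed striatal list was lowest in replicates 3 and 5 at 8723 and 8868 CPM; whether the dissections differed was not tested.

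**Figure D4:**
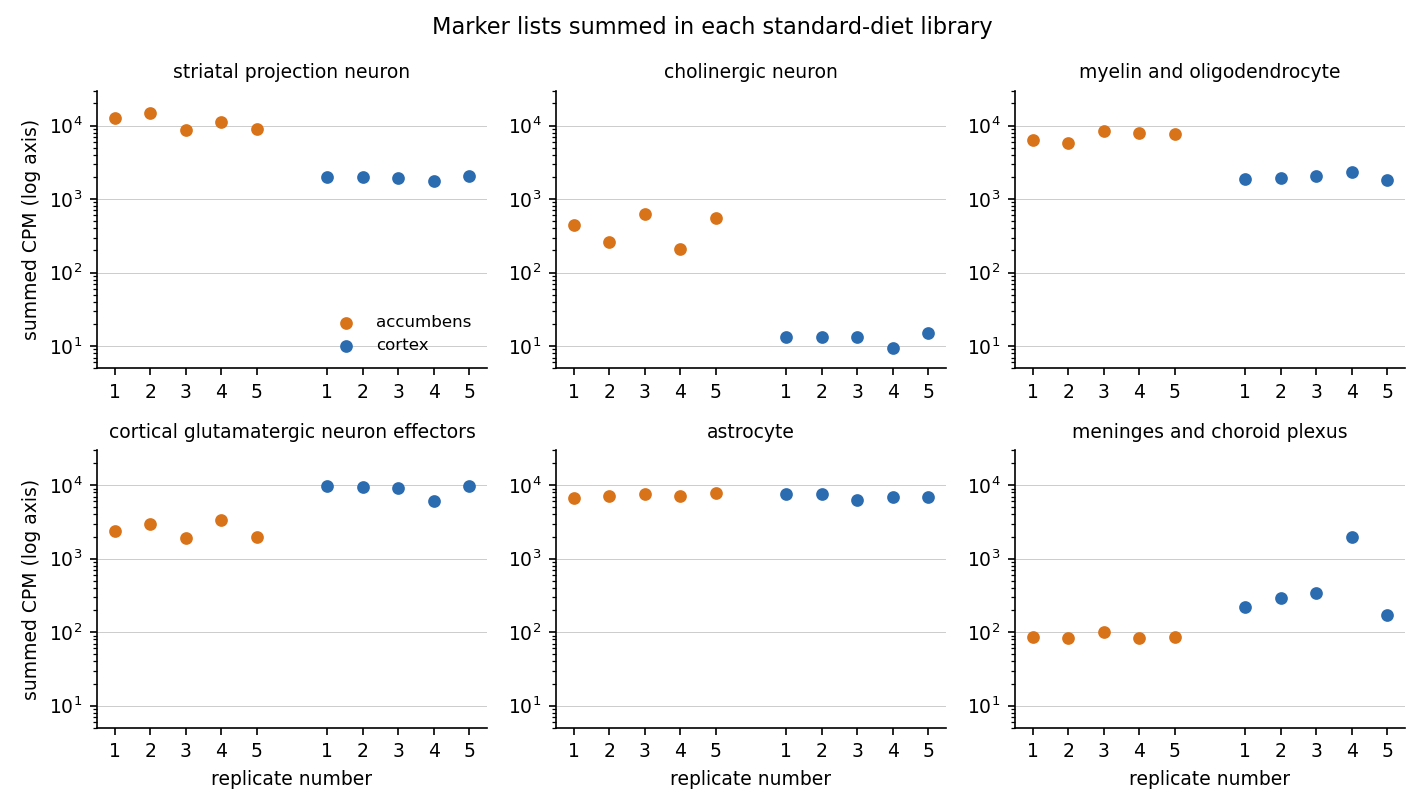
Summed CPM (log axis) of 6 marker lists in each library, accumbens replicates 1 to 5 in orange and cortex replicates 1 to 5 in blue, in order of replicate number. The striatal, cholinergic and myelin sums do not overlap between regions, the cholinergic sums spread from 213 to 630 CPM within the accumbens, and cortex replicate 4 stands apart in the sum for meninges and choroid plexus.

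Most receptor channels for glutamate and GABA differed little or not in a common direction. Ionotropic glutamate receptors had 4 of 15 tested genes higher and 4 lower in the accumbens, and GABA and glycine receptors 5 of 17 higher and 4 lower, with medians near 0 (log2 fold change 0.07 and -0.04). Grm2, a presynaptic metabotropic receptor, was at 6.54, 6.79, 7.87, 9.54 and 9.27 CPM in the accumbens and 133, 121, 126.1, 138 and 137 CPM in the cortex, 16.5-fold higher there (edgeR adjusted p = 2.29e-10). The other member of its group, Grm3, ran the other way (68.3 ± 6.54 against 49.3 ± 5.54 CPM, 1.38-fold higher in the accumbens), as did Grm5 (1.58-fold). The GABA-B receptor is built from a pair of subunits that are both needed at the surface. Gabbr1 was at 1865 ± 116 CPM in the accumbens and 1699 ± 159.98 CPM in the cortex and was not called (adjusted p = 0.198), whereas Gabbr2 was at 139, 127, 169, 202 and 178 CPM against 733, 782, 751, 476 and 861 CPM, 4.43-fold higher in the cortex (adjusted p = 1.7e-06).

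Potassium channels leaned towards the cortex, with 30 of 58 tested genes lower in the accumbens and 12 higher. Of the G protein-gated inward rectifiers, which GABA-B and other receptors open, the 3 subunits on the list were higher in the cortex. Kcnj6 was at 28.7 ± 10.7 against 220.4 ± 28.5 CPM (7.79-fold), Kcnj3 at 12.4 ± 4.61 against 48.1 ± 2.61 CPM (3.93-fold) and Kcnj9 at 43.2 ± 3.84 against 144 ± 24.7 CPM (3.33-fold). Kcnj2, a constitutive inward rectifier, was 2.64-fold higher in the accumbens (14.9 ± 2.14 against 5.64 ± 1.17 CPM), together with Kcnab1, a subunit of Kv1 channels (2.40-fold), and Kcnd2, a pore of the A-type current (1.79-fold). Hcn2, a pacemaker channel, was at 192 ± 13.9 and 182 ± 8.43 CPM and was not called (adjusted p = 0.285). Kcns1, a modifier of Kv2 channels, was at 0.286 to 1.59 CPM in the accumbens and 11.04 to 18.5 CPM in the cortex (log2 fold change -4.63 ± 0.31, edgeR adjusted p = 2.86e-07). Sodium and calcium channels had 11 of 27 genes higher and 10 lower. Scn4b, the sodium channel subunit linked to resurgent current, was at 711, 896, 407, 591 and 427 CPM in the accumbens and 23.1, 22.6, 21.5, 24.7 and 22.6 CPM in the cortex (26.5-fold, edgeR adjusted p = 1.22e-07). The next largest difference of that list was in Cacna2d2, an auxiliary calcium channel subunit, at 3.96-fold (164 ± 44.3 against 41.5 ± 3.82 CPM).

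The machinery of vesicle release had 23 of 45 tested genes lower in the accumbens and 11 higher, and named members of several families were again called in opposite directions. Sv2a, the vesicle protein that levetiracetam binds, was at 576 ± 77.4 CPM in the accumbens and 638 ± 21.4 CPM in the cortex and was not called (adjusted p = 0.185). Sv2b was 6.72-fold higher in the cortex (117 ± 64.6 against 780.4 ± 145 CPM) and Sv2c 9.72-fold higher in the accumbens (68.6 ± 12.8 against 7.16 ± 5.82 CPM, log2 fold change 3.28, and 3.93 without both replicates numbered 4). Of the vesicle-priming Munc13 proteins, Unc13c was at 211, 238, 247, 273 and 228 CPM in the accumbens and 25.7, 27.8, 22.7, 20.4 and 20.4 CPM in the cortex (10.2-fold, edgeR adjusted p = 7.89e-10). Unc13a was 1.46-fold higher in the cortex. The calcium sensors Doc2b and Doc2a were 2.56-fold higher in the accumbens and 5.70-fold higher in the cortex. Stx1a, the syntaxin of the fusion complex, was at 51.0, 52.7, 49.8, 105 and 52.5 CPM in the accumbens and 716, 658, 653, 409.6 and 650.2 CPM in the cortex (log2 fold change -3.32 ± 0.24, edgeR adjusted p = 1.83e-06). Among synaptotagmins Syt17 was 10.3-fold higher in the cortex (18.9 ± 8.70 against 191 ± 37.5 CPM), Syt1 and Syt7 were 1.60-fold and 1.84-fold higher there, and Syt9 was 2.58-fold higher in the accumbens.

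Guidance molecules had 17 of 50 tested genes higher and 15 lower, with a median log2 fold change of 0.0083. Netrin and its receptor were both higher in the accumbens: Ntn1 at 51.8, 51.7, 45.6, 37.3 and 43.8 CPM against 5.21, 7.76, 5.78, 10.6 and 7.84 CPM (6.24-fold, edgeR adjusted p = 2.96e-07) and Dcc at 20.7, 22.8, 21.3, 18.7 and 21.8 CPM against 4.31, 4.44, 5.15, 6.20 and 4.501 CPM (4.29-fold, adjusted p = 9.62e-08). Slit1, a repellent ligand, and Robo3, of the family of slit receptors, were higher in the cortex (3.34-fold and 14.5-fold), while Robo1 was 1.47-fold higher in the accumbens. Ephb6, an ephrin receptor without kinase activity, was 5.43-fold higher in the cortex (53.7 ± 2.27 against 292 ± 68.8 CPM). Reln encodes reelin, a secreted matrix protein of interneurons and of the first cortical layer, and the gene named in the title of the series. It was at 35.1, 28.5, 39.6, 52.6 and 32.7 CPM in the accumbens and 217, 245, 210.4, 364 and 238 CPM in the cortex, 6.81-fold higher in the cortex with no overlap (log2 fold change -2.77 ± 0.19, adjusted p = 9.64e-07). Its intracellular adaptor Dab1 was also higher in the cortex (26.6 ± 4.08 against 61.6 ± 10.9 CPM, 2.32-fold), and its receptor Vldlr was 1.31-fold higher in the accumbens (54.8 ± 5.16 against 41.5 ± 3.56 CPM, adjusted p = 0.00143).

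Genes induced by neuronal activity were mostly lower in the accumbens: of 24 tested immediate early genes 22 were lower, none was higher and 2 were not called (median log2 fold change -1.33). Npas4, a factor induced by calcium entry, was at 16.1, 7.39, 10.3, 20.1 and 7.73 CPM in the accumbens and 112, 76.4, 147, 99.8 and 75.4 CPM in the cortex (8.38-fold, edgeR adjusted p = 2.03e-05). Fos was at 51.4 ± 9.06 against 127 ± 30.2 CPM (2.47-fold), Arc, a synaptic protein, at 222 ± 63.5 against 622 ± 135 CPM (2.80-fold), Egr2 at 28.6 ± 8.87 against 106 ± 29.0 CPM (3.67-fold) and Nr4a1 at 104 ± 23.4 against 299 ± 63.1 CPM (2.86-fold). For Junb and Egr1 the difference was smaller (1.75-fold and 1.64-fold) and the groups overlapped. The labels used here do not say when or in which order the regions were taken.

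Myelin genes were higher in the accumbens. Of 20 tested genes of myelin and oligodendrocytes 17 were higher in the accumbens (median log2 fold change 1.70). Mobp, a basic protein of compact myelin, was at 572, 598, 802, 834 and 736 CPM in the accumbens and 125, 137, 151, 141 and 116 CPM in the cortex (5.29-fold, edgeR adjusted p = 5.43e-08), and the myelin glycoproteins Mag and Mog were 4.87-fold and 3.88-fold higher. The precursor cell marker Pdgfra was not called (154 ± 13.1 against 159.8 ± 33.1 CPM, adjusted p = 0.727). The 1 gene of the list called lower was Mbp, which is uncertain: its reads are split over 6 transcript accessions, and the accession tested held 10.01 ± 0.860 and 26.5 ± 1.95 CPM. In the iron handling list, 6 of 19 genes were higher and 3 lower, and 5 in all were called without cortex replicate 2 or without accumbens replicate 3; the iron carrier Tf, made by oligodendrocytes, was 4.07-fold higher in the accumbens (688 ± 116 against 169 ± 21.9 CPM, adjusted p = 2.42e-07), the ferritin heavy chain Fth1 1.196-fold, and the transferrin receptor Tfrc was at 151 ± 12.3 and 159 ± 13.0 CPM and was not called (adjusted p = 0.414).

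Astrocyte genes were called in both directions, 5 of 14 higher and 3 lower, with summed levels that overlapped (6647 to 7770 CPM against 6363 to 7663 CPM, exact permutation p = 0.603). Gfap, an intermediate filament, was 2.36-fold higher in the cortex (338 ± 26.7 against 797 ± 184 CPM, edgeR adjusted p = 3.76e-05), and Agt, angiotensinogen, 3.12-fold higher in the accumbens (131 to 453 against 75.0 to 102 CPM). The lowest shares called, beside the 47.0% of all accessions, were in 3 lists: 1 of 14 microglial genes, 2 of 15 endothelial and mural genes, and 12 of 47 genes of oxidative phosphorylation. The first pair of counts turned on single libraries. Microglial genes called numbered 0 without any one of cortex replicates 3 and 5 or accumbens replicates 3, 4 and 5, and 3 without accumbens replicate 1. Endothelial and mural genes called numbered 4 without cortex replicate 5, 1 without any one of cortex replicates 2, 3 and 4 or accumbens replicates 2 and 3, and 0 without accumbens replicate 4 or 5. For the microglial receptor Csf1r, the values were 202 ± 13.5 and 189 ± 7.36 CPM (adjusted p = 0.189, and 0.0438 without accumbens replicate 1), and for the endothelial junction protein Cldn5 131 ± 6.83 and 147 ± 12.2 CPM (adjusted p = 0.0558, and 0.00679 without cortex replicate 5). Markers of meninges and choroid plexus were lower in the accumbens in 6 of 9 tested genes and higher in 1, and cortex replicate 4 set much of the size: Col3a1, a fibrous collagen, was at 42.8, 62.4, 77.0, 474 and 33.8 CPM in the cortex and 11.5 to 19.6 CPM in the accumbens (log2 fold change -3.23 ± 0.82, and -1.89 without cortex replicate 4).

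**Figure D5:**
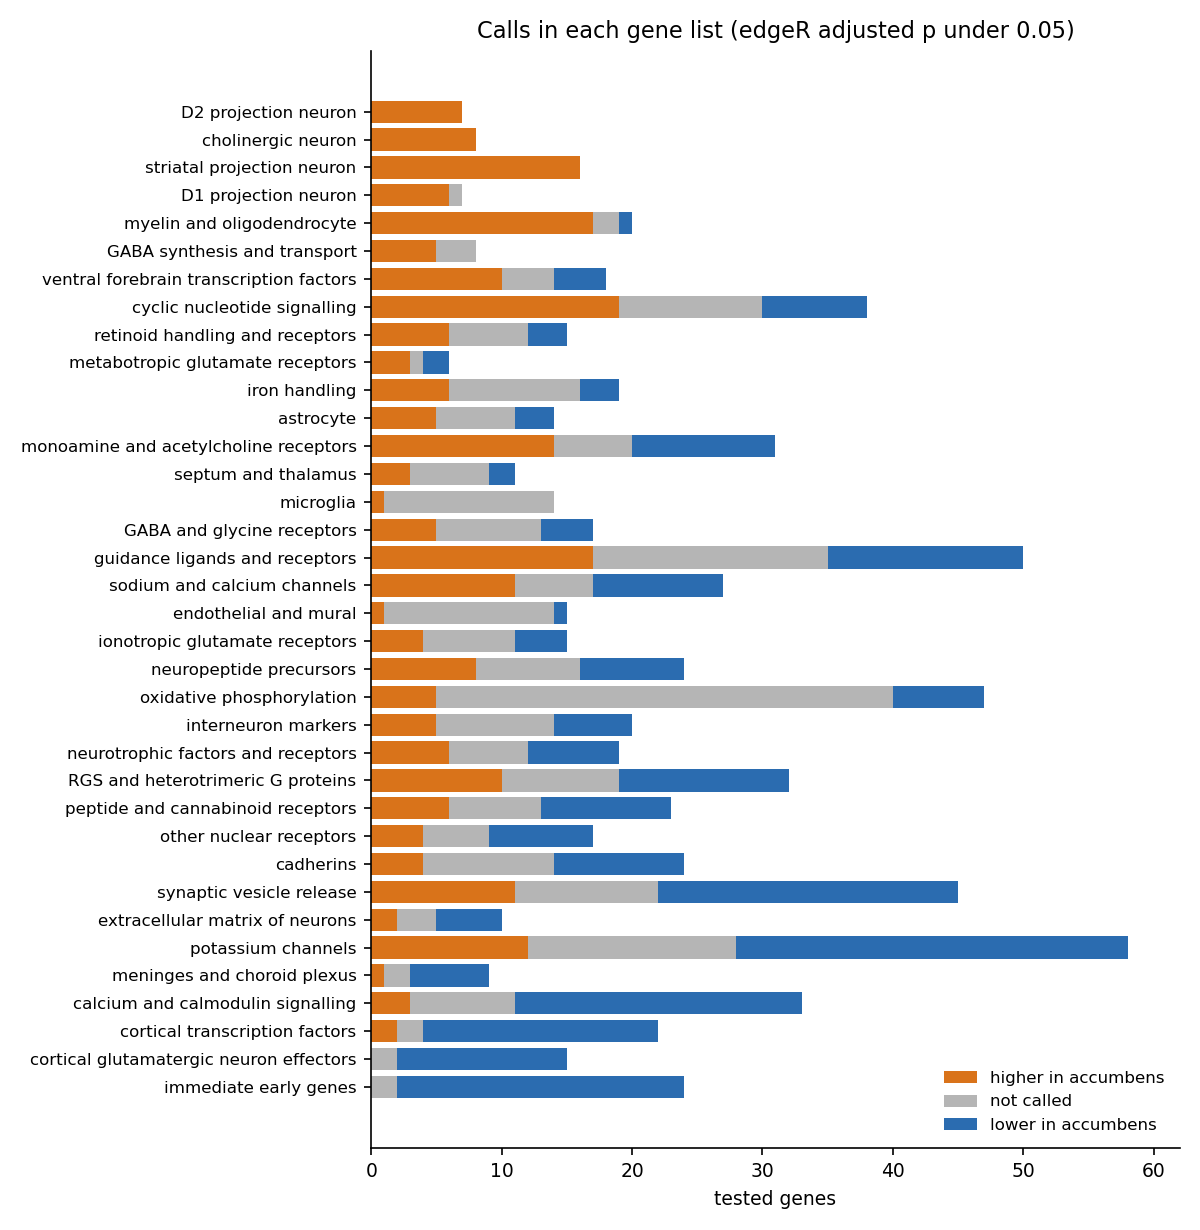
Number of tested genes called higher in the accumbens (orange), lower (blue) or not called (grey) in each of 36 gene lists, at an edgeR adjusted p under 0.05; over all 11612 accessions 23.0% were higher and 24.0% lower. The striatal, cholinergic and myelin lists are almost wholly orange, the immediate early genes and the cortical lists almost wholly blue, and the microglial and endothelial lists almost wholly grey.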

How the data were processed

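Poly(A) RNA-seq counts of 10 standard-diet libraries were analysed, and those of 10 low-iron libraries served one check. Per the submitters' processing notes, the authors used Trimmomatic 0.36.3, STAR, HTSeq and the rat build rn6, and DESeq and DESeq2 are also named; the strand setting is not given in the sources used here. The deposited values are raw counts per RefSeq transcript accession from both strands, and rows that name no gene, 53.4 to 58.2% of each library, were left out. Reads fell equally on both strands (49.9 to 50.0% on the first), so overlapping and antisense genes cannot be told apart. Genes with several accessions are uncertain, which holds for 32 of the 729 tested list genes. Of the 66 list genes that were not tested, 41 had several accessions.

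Counts were tested in edgeR 4.0.16 (R 4.3.3; filterByExpr with a minimum of 10 reads, TMM scaling, robust quasi-likelihood test, Benjamini-Hochberg adjustment), with DESeq2 1.42.0 as an alternative, after a check on simulated data. The simulated data held far fewer changed accessions than were called here, with equal numbers up and down, so they could not check the scaling. The fit used the standard-diet libraries alone. Library measures were compared by 2-sided exact permutation. Up to 12 genes a direction were named for size (mean of at least 10 CPM in the higher group, no overlap), then up to 3 per direction in each list with the lowest p, members against their list's direction, and Reln; others completed families. The members and lists were chosen with earlier results of these data known. Not every gene that the rule takes is reported here.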

Additional observations from a re-analysis of the deposited data

Results flagged for a closer look

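In each group of 5 libraries, the highest or lowest value was marked where its gap to the nearest other library was large for the range of the group (Dixon's ratio at its 95% limit), a rule that chance meets in about 1 in 20 groups. Of 358 groups examined, over the 161 genes given above and 18 library measures, 58 were marked. Cortex replicate 4 held 39 of them and accumbens replicate 4 held 14, which are the libraries that stood apart in the opening.

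Cortex replicate 4 was the highest cortex library for genes and marker sums of several kinds. Of the meningeal and matrix genes, it had 474 CPM of Col3a1, 206 CPM of Aldh1a2, 62.3 CPM of Cdh1 and 84.9 CPM of Shisa3. Of genes linked to GABA neurons and their lineage, it had 118 CPM of Dlx1, 25.7 CPM of Sp8, 141 CPM of Gad2, 169 CPM of Slc32a1, 121 CPM of Slc6a13, 364 CPM of Reln and 22.3 CPM of Crh. Of genes that were higher in the accumbens, it had 153 CPM of Penk, 23.1 CPM of Cartpt, 2.03 CPM of Nts, 15.4 CPM of Rarb, 25.8 CPM of Rasgrp2, 7.89 CPM of Syndig1l, 2.25 CPM of Chrm5 and 148 CPM of Kcnd2. Its summed levels were 1979 CPM for the markers of meninges and choroid plexus, 385 CPM for those of septum and thalamus and 366 CPM for those of D2 neurons.

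The same library was the lowest of the cortex for genes of pyramidal neurons and of signalling. It had 1197 CPM of Slc17a7, 1788 CPM of Camk2a, 409.6 CPM of Stx1a, 508 CPM of Rgs4, 56.0 CPM of Rgs8 and 104 CPM of Nr2f1, and the effectors of cortical glutamatergic neurons summed to 6126 CPM. Of receptors it had 79.5 CPM of Chrm1, 60.7 CPM of Chrm3, 240.8 CPM of Cnr1, 1418 CPM of Gabbr1 and 5.52 CPM of Htr1b. Of the cyclic AMP pathway it had 260.1 CPM of Adcy2, 105 CPM of Gng7, 689.9 CPM of Prkar1b and 115 CPM of Prkar2b, and of Chat it had 0.901 CPM. The low levels of Slc17a7 and Camk2a stand beside high ones of meningeal, GABAergic and striatal genes, and which tissue the piece held was not tested.

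Accumbens replicate 4 was the highest accumbens library for genes that were mostly higher in the cortex. It had 313 CPM of Slc17a7, 42.4 CPM of Slc30a3, 53.7 CPM of Tbr1, 12.5 CPM of Neurod2, 7.77 CPM of Neurod6, 8.83 CPM of Rtn4rl2, 11.5 CPM of Rtn4r and 35.7 CPM of Cck. It also had 105 CPM of Stx1a, 187 CPM of Rgs4, 20.5 CPM of Kcnj3, 1.59 CPM of Kcns1, 5.65 CPM of Vip and 208 CPM of Sst, of which Sst alone was not called between the regions. The other marked values were the lowest accumbens levels of Csf1r (179 CPM) and of the microglial sum (1027 CPM), both in replicate 1, the highest accumbens sum for meninges (99.3 CPM, replicate 3), the highest unmapped share of the cortex (3.66%, replicate 3) and the lowest cortical level of Cldn5 (125.6 CPM, replicate 5).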

How the results depend on the processing

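All 150 called genes named above kept their call and direction under each of 21 alternatives that gave them a value; Sp8 had no adjusted p in DESeq2 and Drd5 was not tested after thinning. Of the 11 genes not called, Csf1r, Gabbr1, Hcn2 and Rxra were called by library size alone, and Cldn5 and Sfxn1 in DESeq2 and with its size factors. Slc6a13, at an adjusted p of 0.0501, was called without any one of the cortex replicates, and with the log2 fold change at -0.66 in place of -1.73 without cortex replicate 4; Sfxn1 and Slc6a13 were also called in the fit of all 20 libraries. Accessions called numbered 5444 with DESeq2's size factors, 5577 with upper-quartile factors, 6079 by library size alone, 5701 in DESeq2, 5615 without the filter, 4954 with libraries thinned to the shallowest and 6099 without both replicates numbered 4. Leaving out 1 replicate gave 4906 to 6294, the highest without cortex replicate 4. Past a 4-fold threshold there were 162 accessions in place of the 691 past 2-fold.

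Whether equally numbered libraries of the 2 regions share a rat was not tested. The deviations of equally numbered libraries from their group means correlated at -0.040 to 0.079. Cortex replicates 1, 2, 3 and 5 each correlated best with the accumbens library of the same number (0.066, 0.079, 0.031 and 0.026). Cortex replicate 4 did not (-0.040, against 0.092 with accumbens replicate 3). Of the accumbens libraries, replicates 1 and 2 correlated best with their own number and replicates 3, 4 and 5 did not. With the number as a replicate block 5188 accessions were called, and with both low-iron regions blocked 6818 in place of 6632. The block moved 5 named log2 fold changes by over 1.5 times in fold, to -6.69 for Slc17a7, -5.59 for Slc30a3, -2.47 for Col3a1, 5.47 for Cartpt and -2.91 for Aldh1a2, and left 5 iron handling genes called in place of 9 and 0 microglial genes in place of 1. Thinning moved by as much the fitted values of 4 genes without a read in the cortex, Six3, Isl1, Lhx8 and Drd3.

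Of the 36 lists, 5 moved by over 1.5 times in their count of called genes under some alternative, those of GABA synthesis, iron handling, microglia, endothelial cells, and septum and thalamus; by library size alone 8 microglial genes were called. Some library measures changed side of the threshold with 1 replicate fewer. The difference in assigned reads then lay between -3660513 and -2490345 and that in accessions detected between -276.9 and -179.7. The differences in summed CPM lay between -619.99 and -168 for meninges and choroid plexus, 73.1 and 119.6 for microglia, -192 and -50.4 for endothelial and mural genes and 17.1 and 81.0 for septum and thalamus. Without both replicates numbered 4 the differences were -3142257 reads, -164 accessions and 90.8 CPM for septum and thalamus. The shallowest library, with 5481403 reads, sets a level of 0.547 CPM for 3 reads, a floor that covers counting error only and limits the lowest genes.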
